A study of Mus musculus with 30 samples.

Results

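Methylation of the IG-CGI was compared between MII oocytes of Gzf1 knockout mice, with 2 libraries, and MII oocytes of wild-type mice, with 1 library. These 3 of the 30 libraries in the study were chosen by their labels, which give tissue, genotype and locus. The whole study measured CpG methylation by bisulfite amplicon sequencing across the imprinted Dlk1-Dio3 domain in cells and mice of several genotypes, and 17 of its libraries were read on the same IG-CGI amplicon reference. The labels of the oocyte libraries give no strain, age, knockout allele, or number of oocytes or females per library. The knockout libraries are called library 1 and library 2 after the replicate numbers in the labels. The labels do not state whether the oocytes were taken from different females, and the spread between these libraries could be technical. The read names carry 1 code in both knockout libraries and another in the wild-type library. What the code stands for is not given in the sources used here, and whatever it marks cannot be told apart from genotype. The other 14 IG-CGI libraries were used for comparison only. They are wild-type, Gzf1 knockout and Dnmt1 knockout embryonic stem cells of the V6.5 line, Tet triple knockout stem cells of the Tet-TKO line, wild-type and Gzf1 knockout E10.5 trunk and adult tail, a dead Gzf1 knockout pup, and 5 heterozygous tails from crosses of knockout females with wild-type males.

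The IG-CGI is a CpG island of the intergenic control region that lies between Dlk1 and Meg3 on mouse chromosome 12. Dlk1 is expressed from the paternal chromosome, and Meg3, also called Gtl2, is a long non-coding RNA gene expressed from the maternal one. The control region gains methylation in the male germline and is normally left unmethylated in the oocyte, and this parental difference is kept in the embryo after fertilization. MII oocytes are arrested at the second meiotic metaphase and hold only maternal copies. Gzf1 is a zinc finger protein, encoded on chromosome 2 from 148679384 to 148692949 in GRCm38. The comparison asks whether maternal copies stay unmethylated in oocytes without it.

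The amplicon reference has 29 CpGs between positions 55 and 273, a span of 218 bases, and a CpG is named here by its position. It was not placed at genome coordinates here. The wild-type library held 1183 reads, knockout library 1 held 1474 and knockout library 2 held 789. Calls per CpG ranged from 876 to 1140 in wild type, from 1378 to 1454 in library 1 and from 712 to 775 in library 2. The reads are PCR products that carry no molecular identifiers, and several can stem from 1 molecule, so every interval, Fisher test and zero-count limit below covers counting error only. With 1 library on a side, such a test compares libraries and not genotypes. The amplicon does not measure expression, so neither the loss of Gzf1 nor the oocyte identity could be checked against marker genes.

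The maternal IG-CGI was methylated at all CpGs in knockout library 2 and at all but CpG 231 in library 1, and it was nearly free of methylation in wild type. The percentage of methylated calls was computed at each CpG and averaged over the CpGs to give a library's level. This level was 0.301% in the wild-type library (95% interval 0.243 to 0.360), 96.3% in library 1 (96.2 to 96.3) and 84.1% in library 2 (83.0 to 85.2). The groups did not overlap. The knockout mean was 90.2% ± 8.59 (SD, n = 2), which was 89.9 points above wild type. Against wild type, the rise was 96.0 points in library 1 (95.9 to 96.0) and 83.8 points in library 2 (82.7 to 84.9). An exact two-sided permutation test of 2 against 1 libraries gave p = 0.333, the smallest p this design allows.

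**Figure D1:**
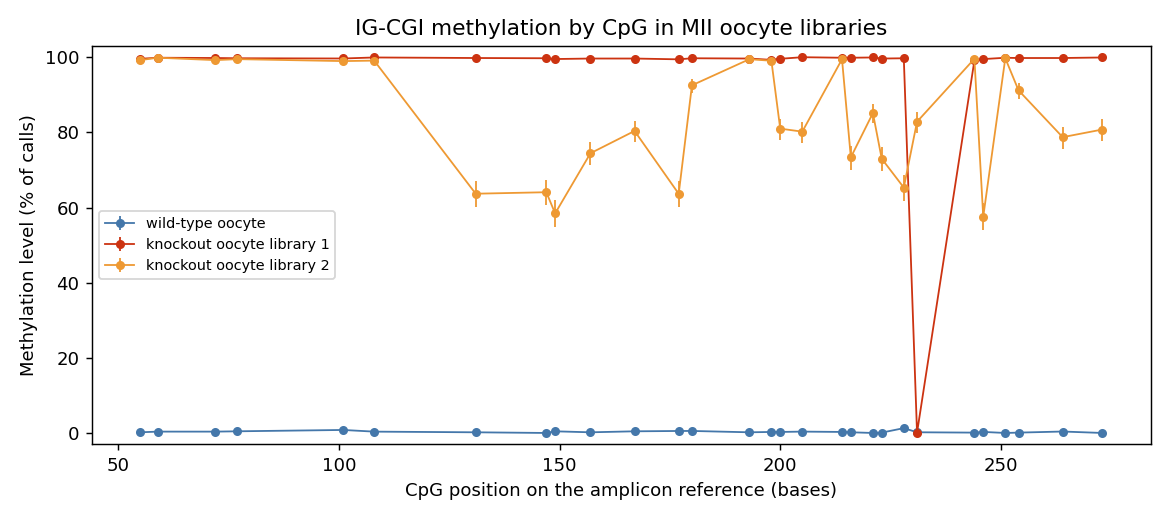
Methylation level of each CpG (percent of calls, with Wilson 95% intervals) against its position on the amplicon reference in bases, for the wild-type oocyte library and both knockout libraries. Library 1 lies at 99.1% or more except at CpG 231, library 2 is near 99% up to CpG 108 and falls as low as 57.6% after it, and wild type stays at or below 1.29%.

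At single CpGs, library 1 was higher than wild type at 28 of 29, which is 96.6%, and library 2 at 29 of 29, which is 100%. A call required a difference of 20 points or more and a Benjamini-Hochberg adjusted p under 0.05 in Fisher's exact test. The largest adjusted p among the calls of library 2 was 1.35e-202, and those of library 1 were too small for the software to represent. The wild-type library had no methylated call at CpG 221, among 1095 calls, or at CpG 251. At CpG 221, which had the largest rise in library 1, that library stood at 99.9%. At CpG 251, which had the largest rise in library 2, that library stood at 99.7%. The CpG with the most methylated calls in wild type was CpG 228, with 14 of 1088, or 1.29%.

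CpG 231 was the exception in library 1. It was methylated in 1 of 1412 calls there (0.0708%, Wilson interval 0.0125 to 0.4001) and in 2 of 1084 calls of wild type (0.185%), with an adjusted p of 0.583 in Fisher's exact test. In library 2 it was methylated in 598 of 722 calls, or 82.8%. Its neighbours in library 1 were almost fully methylated. CpG 228, 3 bases before it, stood at 99.7%, and CpG 244, 13 bases after it, at 99.1%. Over the other 28 CpGs the level of library 1 was 99.7%, with single CpGs between 99.1% and 100%. Calls that departed from that state at these 28 CpGs made up 0.303% of 39662. Methylated calls in the wild-type library made up 0.304% of 31884, so the calls that broke from the main state were as rare in the methylated library as in the unmethylated one.

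The fall of library 2 below library 1 was spread over the part of the amplicon from CpG 131 on. The libraries differed at 11 of 29 CpGs, which is 37.9%. Library 1 was higher at 10 of these (34.5% of the CpGs) and lower at CpG 231 (3.45%). The largest difference was at CpG 231, with the levels given above. Among the CpGs higher in library 1, the difference was largest at CpG 246, with 99.5% in library 1 and 57.6% in library 2, and next at CpG 149, with 99.5% and 58.4%. These were followed by CpG 131 (99.8% and 63.7%), CpG 177 (99.4% and 63.6%) and CpG 147 (99.7% and 64.1%). In Fisher's exact test the adjusted p was 7.62e-154 at CpG 246, and 6.03e-72 at CpG 264, the call with the highest adjusted p. Whatever the size of the difference, 19 CpGs (65.5%) had an adjusted p under 0.05, and with 30 points required 7 CpGs were called. The mean levels of the libraries differed by 12.1 points (95% interval 11.04 to 13.3).

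The first 6 CpGs, from 55 to 108, were close to full methylation in both knockout libraries. Library 1 had 99.6% to 99.9% at these CpGs and library 2 had 98.96% to 99.9%. From CpG 131 to CpG 273, the mean of library 2 over 23 CpGs was 80.1%, with single CpGs from 57.6% to 99.7%. The boundary was set after these values were seen. Some CpGs within the lower stretch stayed high in library 2. CpG 193 stood at 99.5%, CpG 214 at 99.5%, CpG 244 at 99.6% and CpG 251 at 99.7%. CpG 246, which lies between CpGs 244 and 251, stood at 57.6%.

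Read by read, the 3 libraries had 3 different distributions. Among reads with at least 5 calls, the methylated share of a read's calls was 0% at the median in wild type and at most 6.90%. In library 1 the median was 96.6% (quartiles 96.4% and 96.6%), with a lowest read of 83.3%. In library 2 the median was 93.1% and the quartiles were 69.0% and 96.6%, with a lowest read of 50%. Not a single read of either knockout library was mostly unmethylated, with at most 30% of calls methylated, and none of the wild-type reads exceeded that bound. The counts of 0 allow shares of up to 0.204% of 1472 reads in library 1, 0.382% of 786 reads in library 2, and for methylated reads 0.255% of 1178 reads in wild type.

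**Figure D2:**
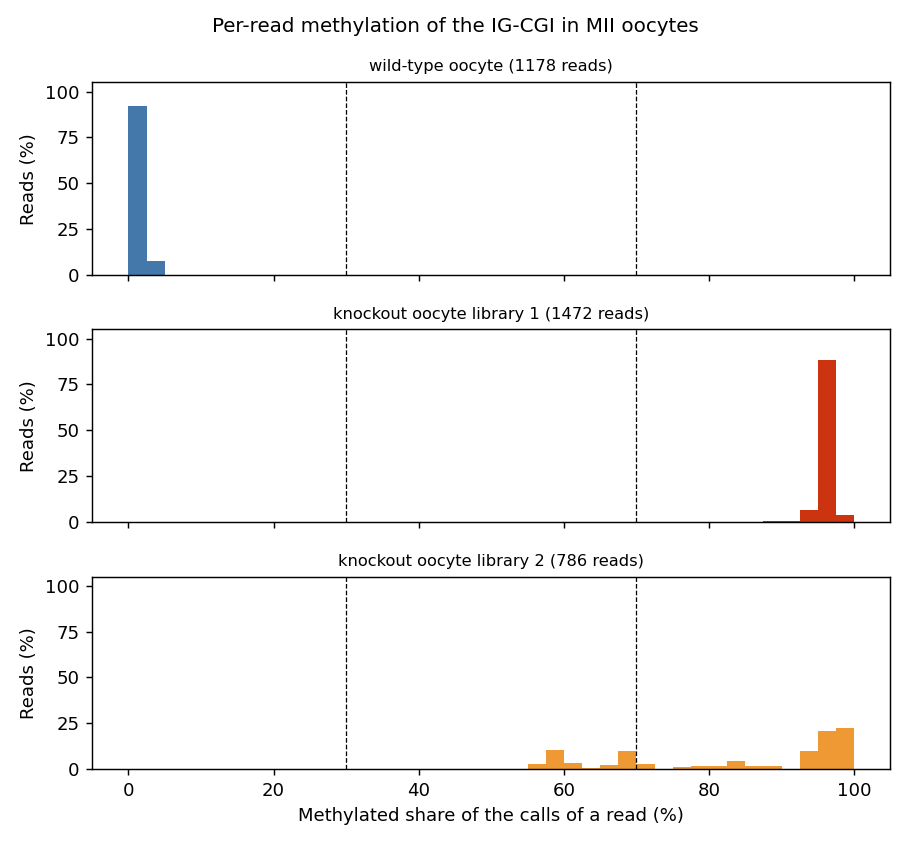
Share of reads (percent of the library's reads with at least 5 calls) by the methylated share of a read's calls, in bins of equal width, for the wild-type library (top), knockout library 1 (middle) and knockout library 2 (bottom). Dashed lines mark the 30% and 70% bounds; library 1 forms a narrow peak at 96.6%, and library 2 has a second group of reads between 50% and 70%.

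Mostly methylated reads, with at least 70% of calls methylated, made up all 1472 reads of library 1 (Wilson interval 99.7% to 100%) and 550 of 786 reads of library 2. The share in library 2 was 69.97% (66.7 to 73.1). The other 236 reads of library 2, or 30.03% (26.9 to 33.3), lay between the bounds. Fisher's exact test between the knockout libraries gave p = 1.73e-120. The share in library 2 depends on the bound, because many of its reads lie just below 70%, and with a bound of 60% it was 85.9%. Reads methylated at every call they had were more common in library 2, with 178 of 786 (22.6%), than in library 1, with 55 of 1472 (3.74%). Among reads called at every CpG, 104 of 541 were fully methylated in library 2 and 0 of 1068 in library 1. In library 1 nearly all reads covering CpG 231 were unmethylated there, and of the 1411 such reads 1307 had no other unmethylated call.

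The reads between the bounds in library 2 did not lose methylation evenly. At 6 CpGs (131, 147, 149, 177, 228 and 246) they were methylated in 0.439% to 4.29% of calls. At 9 CpGs they stood between 37.2% and 63.3%, and at the remaining 14 CpGs between 97.2% and 100%. CpG 231, the gap of library 1, was among the methylated ones on these reads, at 99.1%. Of the 174 such reads that were called at every CpG, 127 (73.0%) had 1 of 2 patterns, given below as patterns 2 and 4, and 148 (85.1%) were within 1 call of these.

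The pattern of a fully called read is its state at all 29 CpGs. In library 1, 1005 of 1068 fully called reads had the same pattern, with CpG 231 alone unmethylated (94.1%, Wilson interval 92.5 to 95.4). Another 55 reads were 1 call away from it. The next 3 patterns had 5 reads each and the one after them 4. They differed from the main pattern by 1 further unmethylated CpG, at 157, 177, 198 or 55. In wild type, 669 of 736 fully called reads were unmethylated throughout (90.9%, 88.6 to 92.8). The next patterns there had a single methylated CpG, at 228 in 9 reads, at 177 in 6, at 101 in 6 and at 167 in 4.

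**Figure D3:**
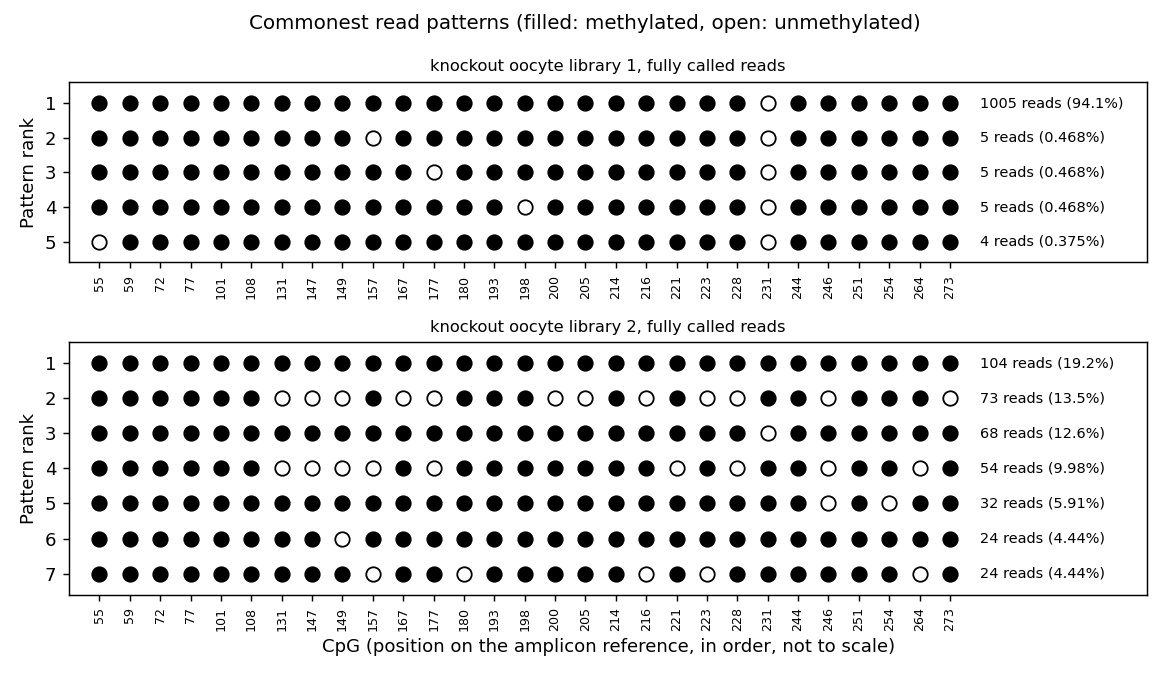
The 5 commonest patterns of knockout library 1 and the 7 commonest of library 2 among fully called reads, 1 row per pattern, with filled circles for methylated and open circles for unmethylated CpGs in order along the amplicon (spacing not to scale) and the number of reads at the right. CpG 231 is open in every row of library 1 and in row 3 of library 2, and rows 2 and 4 of library 2 share 6 open CpGs.

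Library 2 held several patterns. Those with at least 2% of fully called reads, numbered 1 to 7 by frequency, held 70.1% of the 541 reads. Pattern 1, with 104 reads (19.2%, Wilson interval 16.1 to 22.8), was methylated at every CpG. Pattern 2, with 73 reads (13.5%), was unmethylated at 12 CpGs, namely 131, 147, 149, 167, 177, 200, 205, 216, 223, 228, 246 and 273. Pattern 3, with 68 reads (12.6%, 10.04 to 15.6), was the main pattern of library 1, with CpG 231 alone unmethylated. Pattern 4, with 54 reads (9.98%), was unmethylated at 9 CpGs, namely 131, 147, 149, 157, 177, 221, 228, 246 and 264. Its methylated share is 69.0%, just under the 70% bound of the read classes.

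Patterns 2 and 4 shared 6 unmethylated CpGs and differed at 9. Pattern 5, with 32 reads (5.91%), lacked methylation at CpGs 246 and 254. Patterns 6 and 7 had 24 reads each (4.44%). Pattern 6 lacked methylation at CpG 149 and pattern 7 at CpGs 157, 180, 216, 223 and 264. The first 6 CpGs were methylated in all 7 patterns, and so were CpGs 193, 198, 214, 244 and 251. Together these 11 CpGs had 52 unmethylated calls among 8295, or 0.627%. Each of the other 18 CpGs was unmethylated in at least 1 of the 7 patterns, and CpGs 149 and 246 in 3.

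The remaining fully called reads of library 2 were mostly close to these patterns. Of the 541 reads, 379 had 1 of the 7 patterns, and 92 (17.0%) were 1 call away from them. A further 50 reads (9.24%) could be written as the left part of 1 frequent pattern followed by the right part of another. An example in 6 reads carried the left part of pattern 4 up to at least CpG 177 and was methylated from CpG 221 on. Another, in 2 reads, had the same left part and continued with CpG 231 alone unmethylated. The other 20 reads (3.70%) matched neither description. The 7 patterns allow 163 such combinations. How these reads arose was not tested.

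The gaps on mostly methylated reads differed between the knockout libraries accordingly. A gap CpG is taken as one with a level under 90% on these reads. Library 1 had 1 gap CpG, and the 4 next lowest after CpG 231, which were CpGs 244, 198, 177 and 246, stood at 99.1% to 99.5%. Library 2 had 9 gap CpGs. The lowest were CpG 231 with 75.9% (Wilson interval 72.0 to 79.4), CpG 157 with 81.1%, CpG 246 with 81.3%, CpG 149 with 83.4% and CpG 264 with 85.4%. CpG 231 was thus the lowest CpG on mostly methylated reads in both libraries. Over all reads of library 2 it was not the lowest, with 82.8% against 57.6% at CpG 246 and 58.4% at CpG 149. The reads between the bounds, left out here, had 99.1% at CpG 231. In library 2, 122 of the 124 reads unmethylated at CpG 231 were mostly methylated. Of the 124 reads, 92 (74.2%) had no other unmethylated call, as in the main pattern of library 1. The low value in library 2 thus rests mostly on reads that match that pattern, and the level without them was not computed. With identical call patterns counted once, library 2 had 14 gap CpGs.

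A low CpG 231 was not seen on mostly methylated reads elsewhere. In 13 other IG-CGI libraries with such reads, leaving out the Dnmt1 knockout cells with 2 such reads, CpG 231 stood at 93.2% to 99.1%. The pattern with CpG 231 alone unmethylated was found in 43 of 14583 fully called reads of all 14 other libraries, with at most 8 in a library. The 14583 include mostly unmethylated reads, which cannot hold the pattern. It was found in 0 of 736 reads of the wild-type oocytes, where it could not occur because no read was more than 6.90% methylated. Patterns 2, 4 and 7 of library 2 had no read in those 14 libraries. The fully methylated pattern had 2385 reads there, with at least 1 in each library. The knockout libraries shared 9 patterns, which were 34.6% of the 26 patterns of library 1 and 8.26% of the 109 patterns of library 2. These 9 patterns held 1031 of the 1068 fully called reads of library 1 and 80 of the 541 of library 2.

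At equal read number library 1 held about as few patterns as wild type, and library 2 held more than either. In 541 fully called reads, the number available in library 2, the expected number of distinct patterns was 23.9 in wild type, 19.9 in library 1 and 109 in library 2. Of the patterns in library 2, 77 were held by a single read. With patterns 1 call from a commoner one merged into it, the numbers were 2.47, 3.71 and 59. Any 2 fully called reads differed on average at 0.187 CpGs in wild type, 0.133 in library 1 and 6.62 in library 2. How many oocyte genomes stand behind these reads was not measured, and the uniform wild-type reads do not tell molecules apart.

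**Figure D4:**
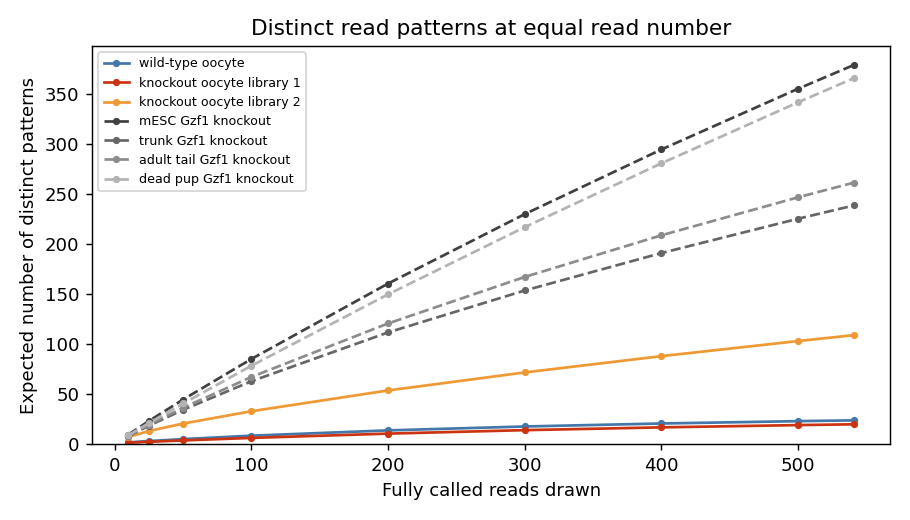
Expected number of distinct patterns against the number of fully called reads drawn, for the 3 oocyte libraries (solid lines) and the Gzf1 knockout libraries of other sources (dashed lines). At 541 reads, wild type and knockout library 1 lie at 23.9 and 19.9, knockout library 2 at 109, and the other sources at 239 to 379.

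Against the other Gzf1 knockout libraries of the IG-CGI, the oocyte libraries held fewer patterns. Those 4 libraries came from V6.5 embryonic stem cells, the trunk of an E10.5 embryo, a dead newborn pup and the tail of an adult, 1 each. They had 239 to 379 expected patterns in 541 reads, and their reads differed on average at 6.85 to 11.9 CpGs. The mean of the oocyte libraries, 3.38 CpGs, lay below theirs of 9.48 (exact two-sided permutation test of 2 against 4 libraries, p = 0.0667, the smallest this design allows). The size of this difference depended on the knockout library. The difference of -6.10 CpGs became -2.86 without library 1 (exact permutation p = 0.4), where library 2 with 6.62 lay just under the trunk library with 6.85, and without library 2 it was -9.35 (exact permutation p = 0.200). A restriction to mostly methylated reads removes the unmethylated reads of the other sources. It also removes the reads between the bounds, among them patterns 2 and 4 of library 2. After it, 367 reads held 16.0 patterns in library 1, 80 in library 2 and 151 to 256 in the others. The numbers of cells behind the libraries are not given in the labels, and their part in this difference was not tested.

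The oocyte level was not shown to differ from that of the other knockout sources. The oocyte mean of 90.2% ± 8.59 (SD, n = 2) compared with 78.2% ± 6.62 (SD, n = 4), an excess of 12.01 points with p = 0.200 in an exact two-sided permutation test that can reach 0.0667 at the lowest. The size of that excess also depended on the library. Without library 1 it was 5.93 points (exact permutation p = 0.600), and without library 2 it was 18.1 points (exact permutation p = 0.200). Mostly unmethylated reads made up 4.20% to 15.2% of reads in the other 4 knockout libraries and were absent from both oocyte libraries at the limits given above.

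**Figure D5:**
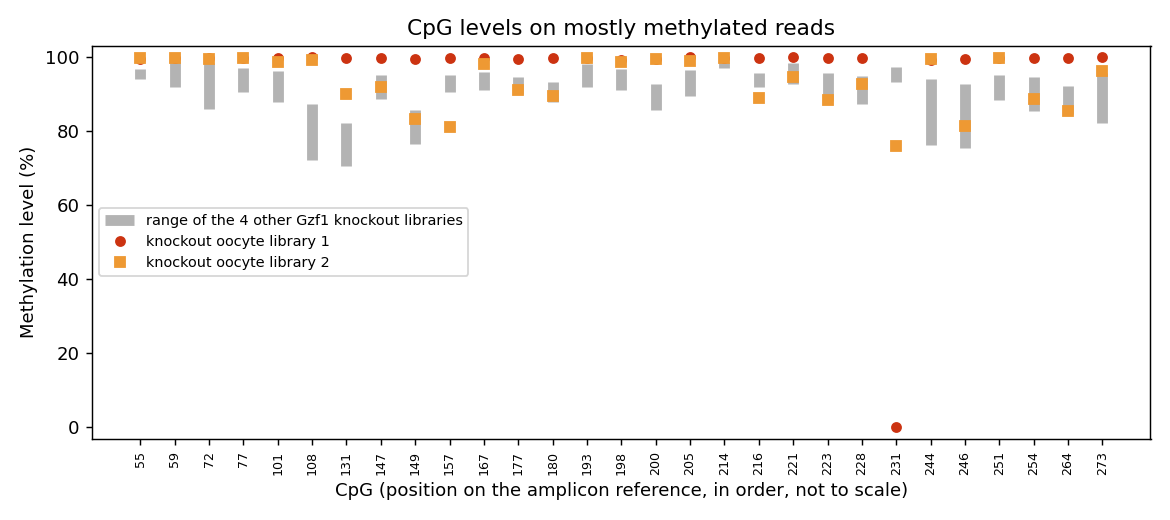
Methylation level of each CpG (percent of calls) on mostly methylated reads in knockout oocyte libraries 1 (circles) and 2 (squares), with gray bars for the range of the 4 other Gzf1 knockout libraries, CpGs in order and not to scale. The oocyte points lie above the gray bars at CpGs 108 and 131 and below them at CpG 231. Over all reads, not drawn here, library 2 lay within the range of the others at CpGs 131 and 231.

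On mostly methylated reads, both oocyte libraries lay above all 4 other knockout libraries at 16 of 29 CpGs, which is 55.2%. These included the first 7 CpGs of the amplicon. CpG 108 stood at 99.9% in library 1 and 99.1% in library 2, against 72.3% to 87.4% in the other sources. CpG 131, the lowest CpG in 3 of these sources, stood at 99.8% and 90.1%, against 70.7% to 82.1%. CpGs 108 and 131 were picked after their values were seen. Both oocyte libraries lay below the others at CpG 231 alone, which is 3.45%. Library 2 lay below all of them at 3 CpGs, which is 10.3%, namely 157, 216 and 231. These counts describe ranges of single libraries on mostly methylated reads and were not tested. Over all reads, library 2 lay below the trunk library at CpGs 131, 167, 200, 205 and 273, which are among the 16. At CpGs 157, 216 and 231 it lay within the range of the other sources over all reads. CpG 231 then stood at 82.8%, against 76.4% to 89.0% in those sources.

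Tails of heterozygous mice born to Gzf1 knockout mothers, as their labels describe them, had IG-CGI levels of 46.9% to 53.4% in 5 libraries. Mostly unmethylated reads made up 42.2% to 51.0% of their reads, against none in the knockout oocytes. In the wild-type adult tail, with 1 library, the level was 51.9% and mostly unmethylated reads made up 44.0%.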

How the data were processed

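Genomic DNA was treated with bisulfite, which does not separate 5-methylcytosine from 5-hydroxymethylcytosine, amplified by nested PCR and sequenced on Oxford Nanopore, per the labels' protocols. Each deposited file holds 1 library with 1 call, methylated or unmethylated, per read and CpG of the original top strand. The calls were made by the authors with the methylation extractor of Bismark, which is version 0.22.3 per the file headers and 0.24.2, with mm10, per the submitters' processing notes. How reads were filtered and aligned is not given in the sources used here. Conversion could not be read at cytosines outside CpGs, and the 0.301% methylated level in wild-type oocytes is an upper limit for failed conversion at the CpGs of that library.

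An amplicon CpG is a position called in 10% or more of the reads in any IG-CGI library. Levels needed 10 calls per CpG. Intervals of levels come from the spread between reads, and those of shares are Wilson intervals. Each CpG was tested between libraries with Fisher's exact test, two-sided, and p-values were adjusted over the 29 CpGs by Benjamini-Hochberg. Library means were tested by exact permutation. Distinct patterns at equal read number were computed with the hypergeometric formula. On simulated reads at the real depths, the Fisher calls recovered 100% of CpGs raised by 30 points in each of the 3 pairs, with 0% false calls over 29 CpGs. The simulated calls were independent of each other, without repeated read patterns or PCR copies. The 0% is therefore not the false-call rate of the real libraries. Depth was 789 to 1474 reads per oocyte library.

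The libraries, the CpG lists and the tests were chosen with earlier results of these data known. Named CpGs are, per knockout library, the 5 lowest on mostly methylated reads and the largest rise, the 5 largest differences in each direction between the knockout libraries, and the CpG singled out in library 1 by earlier work. Named patterns are the 5 commonest per library; patterns 6 and 7 of library 2 were added after their values were seen. Other CpGs were named after their values were seen. Alternatives covered coverage, size of difference, repeated patterns, read coverage, class bounds, pattern definition and left-out replicates. The reporter IG-CGI libraries and the other amplicons of the study were not used here. Software was Python 3.11.15, NumPy 2.4.6, SciPy 1.17.1, pandas 2.3.3 and matplotlib 3.10.9.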

Additional observations from a re-analysis of the deposited data

Results flagged for a closer look

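Among the 5 heterozygous tails from Gzf1 knockout mothers, 1 library had an IG-CGI level of 53.4%, and the other 4 lay between 46.9% and 48.5%. Its distance from the others, relative to the range of the group, exceeded Dixon's 95% critical value, which chance exceeds in about 1 in 20 groups.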

How the results depend on the processing

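Of 90 comparisons of 21 results with an alternative, 68 stayed within the tolerance set for the result, 22 moved beyond it and 0 reversed. The tolerance is wide for the means over both knockout libraries (the SD between them) and for counts (1.5 times), and narrow for values over reads (their 95% interval). Without either knockout replicate the rise was 83.8 to 96.0 points, the excess over other knockout sources 5.93 to 18.1 points, and the difference from them in CpGs between 2 reads, added after seeing the data, -9.35 to -2.86. With identical patterns counted once, the rise was 87.7 points, and that excess 14.6 points (exact permutation p = 0.0667). With each pattern held by at least 2% of fully called reads counted once, which was added after seeing the data, the rise was 90.9 points, and without the reads of library 2 that have the main pattern of library 1, also added later, it was 89.3.

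A minimum of 30 points left 7 CpGs that differ between the knockout libraries, and 10 points gave 16. The mean methylated share of reads in library 1 was 96.2% with at least 15 calls per read. Mostly methylated reads of library 2 were 85.9% with a bound of 60% and 64.1% with 80%. Its gap CpGs numbered 1 below 80%, 14 below 95%, 14 with identical patterns counted once, and 13 and 6 on reads at least 60% and at least 80% methylated.

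Counts of distinct patterns, in the order wild type, library 1 and library 2, were 13.5, 9.83 and 32 for patterns held by at least 2 reads, 2.47, 3.71 and 59 with neighbours merged, and 8.27, 8.14 and 24 over the 8 CpGs called in at least 95% of reads. The share of the commonest pattern was 99.7%, 99.3% and 41.4% with neighbours merged, and 97.3%, 97.7% and 45.1% over those 8 CpGs. These definitions merge patterns by construction. No paired analysis was possible because the wild-type group has 1 library and shares fewer than 2 replicate numbers with the knockout group. Depth limits a class of reads to the zero-count limits given, and 1 wild-type library leaves its replicate spread unknown.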
